A study of Mus musculus with 4 samples.

Results

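B cells of the spinal cord at 7 days after contusion injury (dpi) were compared with B cells of the uninjured cord. The cells were chosen by 3 measured genes. A cell was counted as a B cell when its reads of Cd79a and Cd79b, the signalling chains of the B cell receptor (BCR), added up to at least 500 CPM (counts scaled by all reads of that cell) and its reads of Csf1r, the receptor that marks microglia and macrophages, were under 500 CPM. This gate held 25 of 426 uninjured cells and 42 of 454 cells at 7 dpi, or 67 of the 880 cells of both libraries and of 1825 cells in the 3 libraries of the table (uninjured, 7 dpi and 60 dpi). The 3 dpi library is not analysed here. The mice were Swiss Webster, labelled female, 10 to 12 weeks old, and no transgene or experimental drug was used. After surgery the injured mice were given lidocaine gel, Buprenex and the antibiotic Baytril, so the 7 dpi group also differs from the uninjured group by the operation and its care. Each library was made from 3-mm cord segments around thoracic level 9, pooled from 6 mice that were not perfused, with the meninges removed, and the uninjured group had no contusion. CD45+ cells, both hi and lo, were sorted from a gate of smaller and less granular cells and sequenced by a SMART-seq 3' protocol on the ICell8 nanowell system. Since there is 1 library for each condition, and cells are not replicates, differences are given as values and ratios with no test, and intervals cover counting error only.

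B cells develop from progenitors that rearrange their immunoglobulin genes. Before a light chain exists, the heavy chain pairs with a surrogate light chain, made of Igll1 (lambda5) and Vpreb1 or Vpreb2, to form the pre-BCR. Mature B cells carry a complete BCR, respond to antigen, and load peptides onto MHC class II for display to T cells. In the healthy central nervous system B cells are sparse, and immature stages are known from the bone marrow and also from the meninges.

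The gate chose the cells by Cd79a, Cd79b and Csf1r, so these 3 genes are described only. The lowest sum of Cd79a and Cd79b inside the gate was 615 CPM in the uninjured library and 505 CPM at 7 dpi, and the cells just below the limit had 447 and 378 CPM. The highest Csf1r level inside was 367 CPM in the uninjured library and 489 CPM at 7 dpi, and the lowest level among the cells left out for Csf1r was 605 and 571 CPM. Another 7 uninjured cells and 28 cells at 7 dpi passed the limit for Cd79a and Cd79b but had at least 500 CPM of Csf1r, and were not counted as B cells. Of 9 B cell markers that the gate did not use (Ms4a1, Cd22, Cd37, Pax5, Ebf1, Spib, Fcrla and Ly6d among them), at least 3 had a read in 24 of 25 uninjured cells and in 37 of 42 cells at 7 dpi, with a median of 7 and 5.5 markers per cell.

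**Figure D1:**
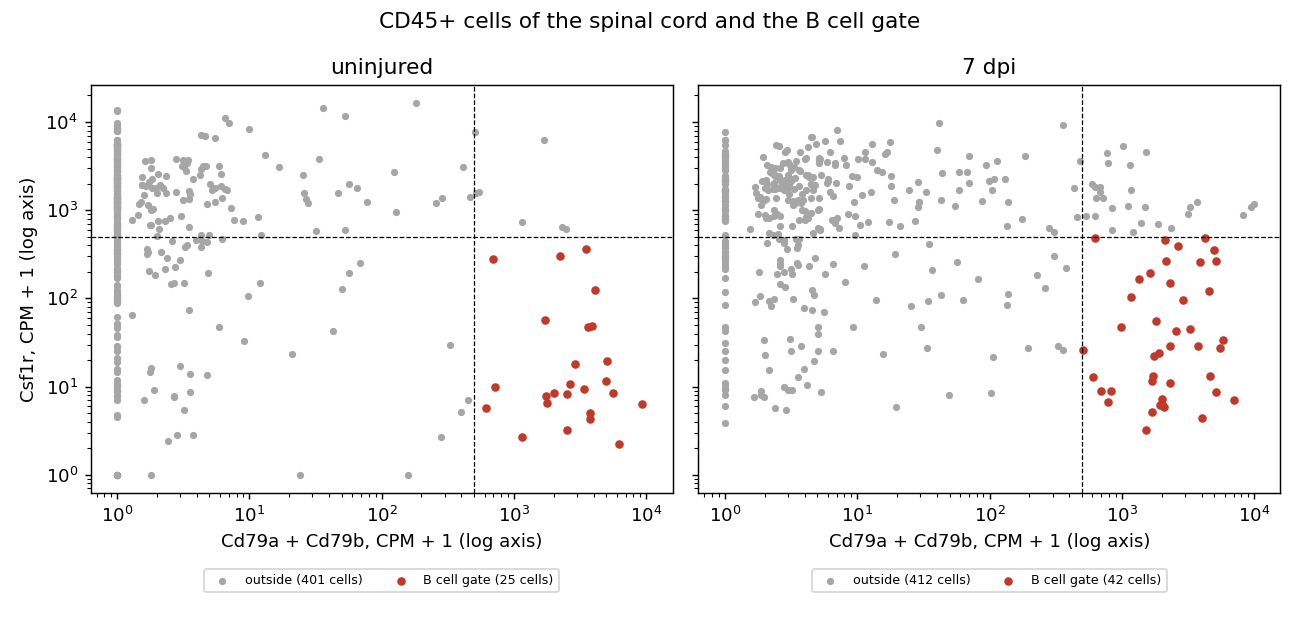
Each point is a cell, with the sum of Cd79a and Cd79b (x axis) and Csf1r (y axis) in CPM plus 1, both on log axes, and dashed lines at the limits of 500 CPM. The gate at lower right (red) holds 25 uninjured cells and 42 cells at 7 dpi, and the cells above it at upper right number 7 and 28.

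The 7 dpi library did not match its label for sex. Xist, the RNA of the inactive X chromosome, had a read in 17 of 25 gated uninjured cells and in 0 of 42 gated cells at 7 dpi, whereas a Y-linked gene (Ddx3y, Eif2s3y, Kdm5d or Uty) had a read in 0 and 35 of them. Every difference below is therefore between libraries that also differ in this respect, and sex and injury cannot be told apart. Gated cells held 17386522 reads in the uninjured library and 42842550 at 7 dpi, with medians of 588068 and 812308 reads and of 2234 and 2960 genes per cell. The libraries shared 43 cell barcodes, and 0 barcodes were inside the gate in both libraries.

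The share of cells inside the gate was 5.87% in the uninjured cord (exact Clopper-Pearson 95% interval 3.83 to 8.54%) and 9.25% at 7 dpi (6.75 to 12.3%), and the intervals overlap. Both shares depend on the sort. With Csf1r limited to 100 CPM they were 4.93% and 6.39%.

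The groups of cells within the gate differed between the libraries. Cells were divided by the summed reads of Igll1, Vpreb1 and Vpreb2 (pre-BCR cells, at least 500 CPM) and of H2-Aa, H2-Ab1 and H2-Eb1. MHC-II-high cells had at least 1000 CPM of the latter and under 500 CPM of the pre-BCR genes. The uninjured gate held 0 pre-BCR cells of 25, which allows a share of up to 12% by the rule of 3 cells and 13.7% by the exact interval, 19 MHC-II-high cells (76.0%, 54.9 to 90.6%) and 6 cells with neither. At 7 dpi there were 6 pre-BCR cells of 42 (14.3%, 5.43 to 28.5%), 15 MHC-II-high cells (35.7%, 21.6 to 52.0%) and 21 cells with neither (50%, 34.2 to 65.8%). The intervals for MHC-II-high cells did not overlap, and those for pre-BCR cells did. These limits cut a range: 4 uninjured cells and 7 cells at 7 dpi were within a factor of 2 of the MHC class II limit, and 2 cells at 7 dpi within that factor of the pre-BCR limit. Pre-BCR cells were deeply sequenced and held 27.1% of the gate's reads at 7 dpi, so they weigh more in the summed levels below than in the count of cells.

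**Figure D2:**
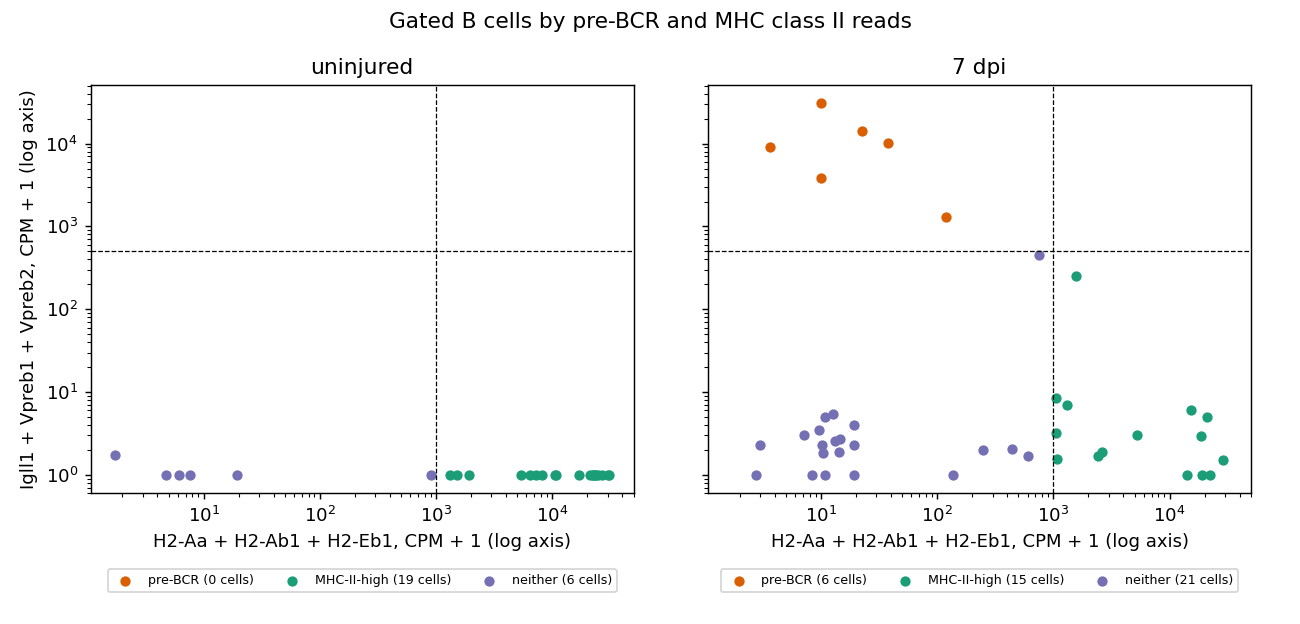
Each point is a gated B cell, with the sum of H2-Aa, H2-Ab1 and H2-Eb1 (x axis) and of Igll1, Vpreb1 and Vpreb2 (y axis) in CPM plus 1 on log axes, and dashed lines at the limits of 1000 and 500 CPM. The 6 pre-BCR cells (orange) are all in the 7 dpi library, with 1293 to 30549 CPM of the pre-BCR genes, and MHC-II-high cells (green) number 19 and 15.

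Promoter sequences of 3 genes are shown because their products define these groups. They are the 250 bases before the start, from RefSeq (GRCm38.p6), written 5' to 3' on the gene's strand. Igll1 (chr16:16863986-16864235, minus strand) has in capitals its match to CCCNNGGG, a core of sites bound by the B lineage factor EBF1. H2-Aa (chr17:34287824-34288073, minus strand) and H2-Eb1 (chr17:34305617-34305866, plus strand) have in capitals the letters TGATTGG of the Y box, the CCAAT element of MHC class II promoters.
Igll1: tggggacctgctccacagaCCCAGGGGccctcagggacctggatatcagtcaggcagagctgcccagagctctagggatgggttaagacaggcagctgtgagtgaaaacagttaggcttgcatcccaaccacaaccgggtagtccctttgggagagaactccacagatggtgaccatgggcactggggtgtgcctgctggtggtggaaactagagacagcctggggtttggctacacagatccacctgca
H2-Aa: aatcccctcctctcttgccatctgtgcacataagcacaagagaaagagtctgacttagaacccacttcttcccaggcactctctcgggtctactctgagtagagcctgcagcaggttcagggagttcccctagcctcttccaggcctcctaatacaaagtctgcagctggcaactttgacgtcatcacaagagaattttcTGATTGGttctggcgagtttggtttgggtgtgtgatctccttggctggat
H2-Eb1: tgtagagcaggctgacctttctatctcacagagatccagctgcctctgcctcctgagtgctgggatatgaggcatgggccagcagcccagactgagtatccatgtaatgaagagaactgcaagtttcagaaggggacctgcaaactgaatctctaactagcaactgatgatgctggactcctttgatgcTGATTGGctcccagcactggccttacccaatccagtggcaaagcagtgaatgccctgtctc
On either strand, TGATTGG was found in 7 of the 8 MHC class II list genes whose promoters were searched, between 45 and 102 bases before the start, and in 7.21% of all 32536 promoter windows of this length. CCCNNGGG, which reads the same on both strands, was found in Igll1 alone of the 3 surrogate light chain genes and in 11.9% of all windows. A match describes the letters and not the binding of a factor.

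Expression was summed over the gated cells of each library. A gene was compared when, in at least 1 library, its level reached 50 CPM and 25% or more of the gated cells, each thinned to 50000 reads, held it, and was called higher or lower when the log2 ratio of CPM plus 1 was at least 1 or at most -1. Of 2024 genes compared, 779 (38.5%) passed this limit. Of all compared, 421 (20.8%) were higher and 358 (17.7%) lower at 7 dpi, and the median log2 ratio was 0.02. A single cell gave most of the reads (in the library with the higher level) of 24 of the genes called higher and of 116 of the genes called lower. To set the rises beside RNA that may be free in the suspension, the same level was taken in the cells outside the gate. At 7 dpi 309 of the 421 higher genes were above the level outside, and 112 were at or below it. Of the 358 lower genes, 314 were above the outside level of the uninjured library.

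**Figure D3:**
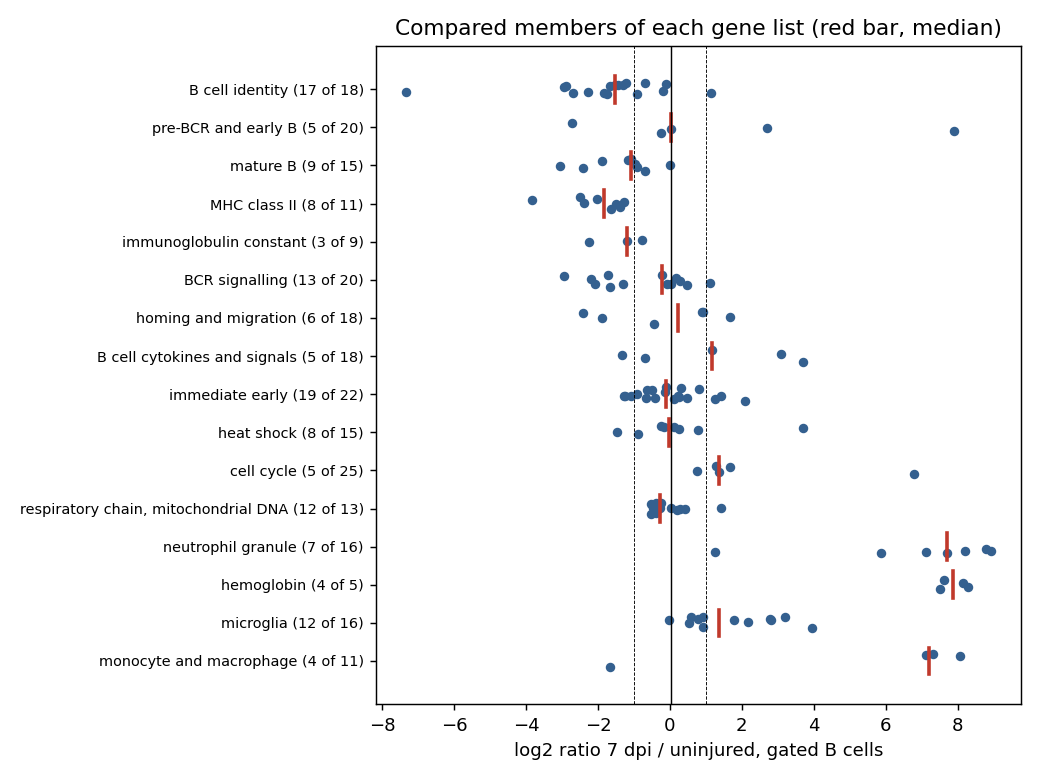
Each point is a compared gene, with its log2 ratio of 7 dpi over uninjured gated cells (x axis) by gene list (y axis, compared of listed genes in the table), a red bar at the list's median, a solid line at the median of all 2024 genes and dashed lines at -1 and 1. MHC class II members lie below -1, B cell identity members mostly below 0, and neutrophil granule and hemoglobin members, which passed the filter through the 7 dpi library alone, above 1.

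Genes of B cell identity were mostly lower at 7 dpi: without the gate genes Cd79a and Cd79b, 11 of 15 compared members were lower and 1 higher, beside 17.7% and 20.8% of all genes, and their median log2 ratio was -1.52. The filter was passed through the uninjured library alone by 4 members, Cd22, Pou2af1, Bank1 and Fcrl1. Ms4a1, which encodes CD20 (chr19:11249675-11266241), had 1916 CPM in uninjured B cells and 295 CPM at 7 dpi (log2 ratio -2.69), and at least 100 CPM in 21 of 25 and 11 of 42 cells. Single cells ranged from 0 to 8125 CPM of Ms4a1 with a median of 729 in the uninjured library, and from 0 to 3140 with a median of 0 at 7 dpi. The ranges overlap, but 31 of the 42 cells at 7 dpi were under 100 CPM. Ms4a1 had 0 reads in the 6 pre-BCR cells. It was 2103 CPM in uninjured and 774 CPM in 7 dpi MHC-II-high cells. Transcription factors of the lineage were lower too, with Ebf1 at 199 and 72.5 CPM (-1.44) and Spib at 248 and 85.5 CPM (-1.52), while Pax5 (196 and 103 CPM, -0.92) did not reach 2-fold. The Fc receptor-like gene Fcrl1 had the lowest ratio of the list, with 286 and 0.77 CPM (-7.34), and at least 100 CPM in 6 uninjured cells and 1 cell at 7 dpi, but a single cell held 45.6% of the uninjured reads. Bank1, an adaptor of BCR signalling (551 and 114 CPM, -2.26), and Faim3, the receptor for IgM (603 and 80.1 CPM, -2.90), were likewise lower. The Fc receptor-like Fcrla, at 291 and 255 CPM, was within 2-fold. Of the gate genes, whose sum chose the cells and which are described only, Cd79b had 2394 and 2230 CPM. Cd79a had 963.5 and 270.9 CPM (-1.83). Pou2af1, a coactivator of immunoglobulin gene transcription, was the member called higher (63.8 and 142 CPM, 1.14), but 59.9% of its reads at 7 dpi came from 1 cell, and its log2 ratio was 0.33 without the top cell of each library and -0.76 with Csf1r limited to 100 CPM.

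MHC class II genes were lower in 8 of 8 compared members of 11 listed, with a median log2 ratio of -1.83, beside 17.7% of all genes lower. Of the 8, 4 passed the filter through the uninjured library alone (H2-Eb1, H2-DMb1, H2-Ob and Cd74), which favours a lower call. H2-Aa (chr17:34282744-34287823) and H2-Ab1 (chr17:34257689-34269419) encode the alpha and beta chains of I-A. H2-Ab1 had 7627 CPM in uninjured B cells and 1886 CPM at 7 dpi (-2.01), and H2-Aa had 3814 and 1564 CPM (-1.29). Single cells ranged from 0.74 to 23655 CPM of H2-Ab1 with a median of 4774 in the uninjured library, and from 0.66 to 16518 with a median of 11.9 at 7 dpi. High cells were thus found in both libraries, and at least 100 CPM of H2-Ab1 was seen in 19 of 25 and 15 of 42 cells. The genes that load peptides, H2-DMa (614 and 215 CPM, -1.51) and H2-DMb2 (789 and 151 CPM, -2.38), and their B cell modulator H2-Ob (254 and 16.7 CPM, -3.84) were lower with them. Within MHC-II-high cells, which the 3 classical genes define, the differences were smaller: H2-Aa had 4751 and 4526 CPM, H2-Eb1 had 825 and 760 CPM, H2-Ab1 had 9501 and 5582 CPM, and 3 of 8 members were at least 2-fold lower, against 21.4% of 2082 genes. H2-DMb2 (941 and 412 CPM) and H2-Ob (316 and 20.4 CPM) were among these 3, with Cd74, the invariant chain (248 and 96.6 CPM). Through which library the members passed the filter within MHC-II-high cells was not counted.

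Mature B cell genes were lower in 5 of 9 compared members and higher in 0 (median -1.09), beside 17.7% of all genes lower. The filter was passed through the uninjured library alone by 5 of the 9, among them Cd55, Ccr7 and S1pr1. Cd55, an inhibitor of complement, had 589 and 69.9 CPM (-3.06), Ccr7, the receptor for homing to lymph node T zones, had 262 and 48.5 CPM (-2.41), and S1pr1, the receptor for exit from lymphoid tissue, had 147 and 38.7 CPM (-1.90). Tnfrsf13c, the receptor for the survival factor BAFF, was at 192 and 98.2 CPM (-0.96), and Klf2, a factor of quiescent lymphocytes, at 200.3 and 200.1 CPM. Fcer2a (CD23), typical of follicular B cells, was not past the filter (122 and 80.1 CPM), and had at least 100 CPM in 3 cells of each library. Within MHC-II-high cells 7 of 11 compared mature genes were lower and 0 higher (median -1.22), beside 21.4% of 2082 genes lower. The genes were not the same: S1pr1 had a ratio of -0.71 there, and Klf2 (-1.22) and Tnfrsf13c (-1.91) were lower there but not over the gate. The filter was applied anew in these cells, and through which library the 11 genes passed it was not counted. The MHC-II-high cells of both libraries also differed in the summed MHC class II list, with medians of 19826 and 6220 CPM per cell.

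Immunoglobulin constant genes were measured for 3 members past the filter. Igkc, the kappa light chain, fell from 8526 to 3743 CPM (-1.19), with at least 100 CPM in 25 of 25 uninjured cells and 29 of 42 cells at 7 dpi. Iglc2, a lambda light chain, had 2551 and 540 CPM (-2.24). Ighm, the IgM heavy chain, had 3308 and 1937 CPM (-0.77) and at least 100 CPM in 22 of 25 and 36 of 42 cells, within 2-fold. In the pre-BCR cells Igkc was at 155 CPM and Ighm at 630 CPM. The class-switched heavy chains were not past the filter. Igha had 30.8 and 0.02 CPM, and Ighg2b had 0 CPM in uninjured cells and 13.02 CPM at 7 dpi, from a single pre-BCR cell. Of the plasma cell list only Mzb1, a chaperone of IgM assembly (264 and 291 CPM), and Xbp1, the factor of secretory cells (124 and 54.2 CPM, -1.18), were compared, and Jchain is not among the genes analysed here.

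Inside the gate the surrogate light chain genes had 100 CPM or more only at 7 dpi, in few cells. Of the 20 listed genes of the pre-BCR and early B stages, 5 were compared, of which 2 were higher and 1 lower (median 0.04). Igll1 (chr16:16860671-16863985) had 0.06 CPM in uninjured and 1193 CPM in 7 dpi B cells, Vpreb1 had 0 and 1066 CPM, and Vpreb2 had 0 and 422 CPM. These genes did not pass the filter, with at least 100 CPM in 8, 5 and 5 of 42 cells. Against the level that 3 reads would give over the uninjured gate, Vpreb1 was at least 6177-fold and Vpreb2 at least 2443-fold higher. Vpreb1 and Vpreb2 are near-identical copies, and how reads were split between them is uncertain. The 6 pre-BCR cells had 1293, 3892, 9097, 10084, 14360 and 30549 CPM of the 3 genes together, and no other gated cell passed 500 CPM. Outside the gate Igll1 had at least 100 CPM in 5.10% of 412 cells at 7 dpi (3.18 to 7.69%) against 19.0% inside (8.60 to 34.1%), and in 1 of 401 uninjured cells. That uninjured cell had 8655 CPM of Igll1. Vpreb1 and Vpreb2 each also had at least 100 CPM in 1 uninjured cell outside the gate, at 6640 and 3266 CPM. With the limit for Cd79a and Cd79b at 250 CPM, the log2 ratio of Igll1 was 0.75, against 10.14 at 500 CPM. The Igll1 ratio thus depended on the gate limit. Dntt, the polymerase that adds bases at V(D)J joins, had 0 and 120 CPM and at least 100 CPM in 2 cells. Rag1, of the V(D)J recombinase, had 103 and 55.9 CPM, and its uninjured reads came from 2 cells that were neither MHC-II-high nor pre-BCR. Vpreb3, which binds light chains inside the cell, had 1309 and 1350 CPM and was at least 100 CPM in 12 of 25 and 27 of 42 cells.

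The 2 genes of this list that passed the filter and were higher were Il7r and Smarca4, both through the 7 dpi library alone. Il7r (chr15:9505788-9530176), the receptor for interleukin-7, a growth factor of early B cells and of T cells, had 0.52 CPM in uninjured and 361 CPM in 7 dpi B cells (7.90). It had at least 100 CPM in 0 of 25 and 12 of 42 cells, 3 of them pre-BCR, 3 MHC-II-high and 6 neither. Outside the gate its level was 87.4 CPM in the uninjured library and 55.5 CPM at 7 dpi, so its rise was found inside the gate and not outside. It was 302 CPM in pre-BCR cells, 155 CPM in MHC-II-high cells and 577 CPM in cells with neither. Smarca4, the motor subunit of the BAF chromatin remodelling complex, rose from 42.6 to 285 CPM (2.71), with at least 100 CPM in 2 of 25 and 16 of 42 cells. Ikzf3 (Aiolos), a factor of later B cell stages, was the member called lower (217 and 31.9 CPM, -2.73), and passed the filter through the uninjured library alone. T cell genes were low: the summed T cell list was 79.4 CPM in uninjured and 45.3 CPM in 7 dpi B cells, and 0 of its members were past the filter. The NK cell list had 1.49 and 452 CPM, with at least 500 CPM in 0 of 25 and 13 of 42 cells, and 763.7 and 2966 CPM outside the gate. The gated cell highest in NK genes, with 17151 CPM, had neither pre-BCR nor MHC class II genes past their limits. It had 0 reads of Ighm and a read of 1 of the 9 other B cell markers. Some other 7 dpi cells with neither had 0 reads of Ighm too. Their microglia list sums were 55557, 98579 and 105530 CPM, with 0, 2 and 1 of these markers. An uninjured cell with neither and 0 reads of Ighm had 128806 CPM and 1 marker. At least 100 CPM of Ighm was found in 17 of the 21 cells with neither at 7 dpi. Such cells stayed in the gate's summed levels, and whether they are B cells was not tested.

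**Figure D4:**
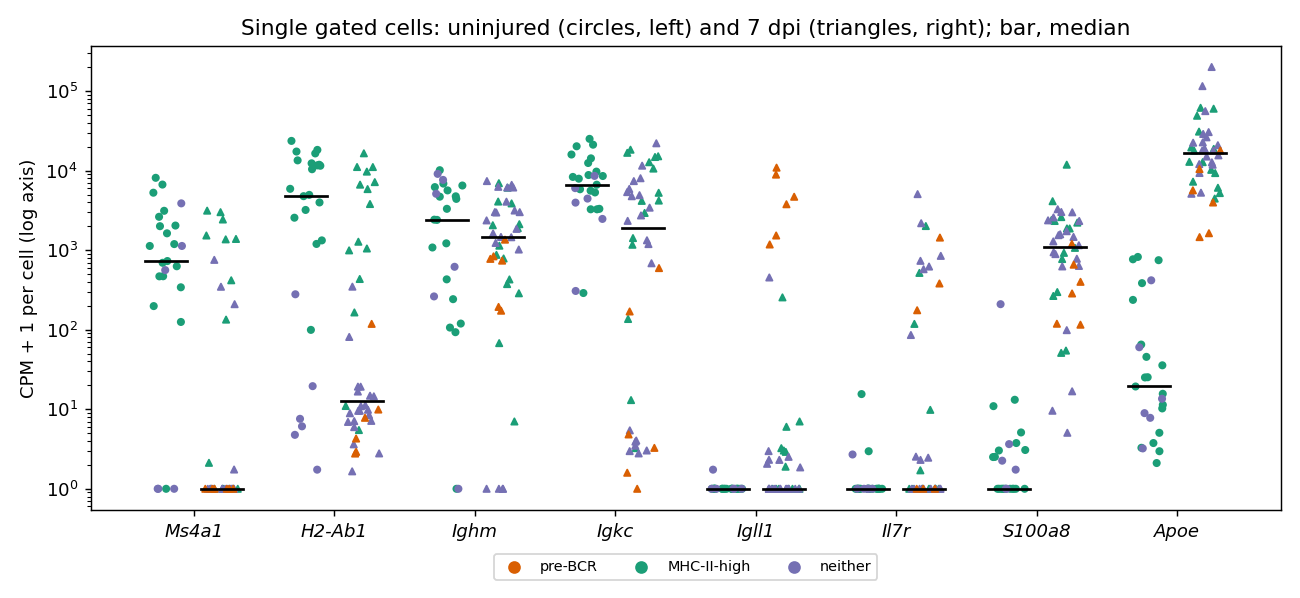
Each point is a gated cell, with CPM plus 1 of a gene (y axis, log) for uninjured cells (circles) and 7 dpi cells (triangles), coloured by group, and a bar at the median of the library. Ms4a1 and H2-Ab1 fall to low medians at 7 dpi while single cells stay high, Igll1 and Il7r are above 100 CPM in 8 and 12 cells at 7 dpi, and S100a8 is above 100 CPM in 36 and Apoe in 42 of 42 cells at 7 dpi.

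Cell cycle genes were higher in 4 of 5 compared members of 25 listed and lower in 0 (median 1.36), beside 20.8% of all genes higher. Tubb5 passed the filter through the 7 dpi library alone. Tubb5, a tubulin, had 0.12 and 122 CPM (6.79), Hmgb2, a chromatin protein, 333 and 1069 CPM (1.68), H2afz, a histone variant, 621 and 1596 CPM (1.36), and Hmgn2, a nucleosome-binding protein, 382 and 922 CPM (1.27). At 7 dpi the summed list had a median of 8322 CPM in pre-BCR cells (687 to 16661), 1455 CPM in MHC-II-high cells (12.04 to 30549) and 1027 CPM in cells with neither (6.09 to 19230). In uninjured MHC-II-high cells the median was 1122 CPM (0 to 4717). The median was thus highest in pre-BCR cells, but the highest single cells were 1 of each other group. These 2 cells had 254 CPM (MHC-II-high) and 453.5 CPM (neither) of the pre-BCR genes, and were the 2 within a factor of 2 of the pre-BCR limit. Stmn1, which destabilizes microtubules (0.06 and 345 CPM), and Mki67, a marker of dividing cells (0 and 99.5 CPM), were not past the filter and had at least 100 CPM in 7 and 4 cells. Core histones Hist1h2ao (2.42 and 694 CPM), Hist1h2ap (2.42 and 690 CPM) and Hist1h2ag (0.12 and 328 CPM) were among the 15 highest genes, but 1 cell gave 81.2%, 81.2% and 81.4% of their 7 dpi reads. The gene copies are near-identical, so reads may have been split among them. H2afz fell below 2-fold (0.52) when the pre-BCR cells were left out, as did Hmgn2 (0.67), whereas Hmgb2 (1.62) and Tubb5 (6.21) did not. The 2 cells near the pre-BCR limit were still included in these ratios.

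Of 13 compared genes of BCR signalling, 6 were lower and 1 higher (median -0.21), beside 17.7% and 20.8% of all genes. The filter was passed through the uninjured library alone by 4 of the 13, which favours a lower call. It was passed through the 7 dpi library alone by 2, which favours a higher call. Syk, the kinase that binds the BCR chains, had 492 and 107 CPM (-2.19), Ptprc, which encodes CD45 itself, 853 and 345 CPM (-1.30), and Grb2, an adaptor, 138 and 32.0 CPM (-2.08). Blnk, the linker downstream of Syk (332 and 286 CPM), Cd81, a tetraspanin (998 and 942 CPM), and Ptpn6, a phosphatase (264 and 268 CPM), were within 2-fold. Fcgr2b, the inhibitory Fc receptor for IgG, was the member called higher (66.7 and 144 CPM, 1.10), with 79.0% of the uninjured reads in a single cell. At 7 dpi Fcgr2b was at 81.6% of its level outside the gate. Of 6 compared homing genes 1 was higher, the integrin Itgb1 (17.9 and 59.4 CPM, 1.68), and 2 were lower, Ccr7 and S1pr1. Itgb1 was at 37.1% of its level outside the gate at 7 dpi. Of these 6 homing genes, 3 passed the filter through the uninjured library alone and 2 through the 7 dpi library alone.

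Of 19 compared immediate early genes, 3 were higher and 3 lower (median -0.11), shares near the 20.8% and 17.7% of all genes. The filter was passed through the uninjured library alone by 2 of the 19. Atf3 (76.5 and 331 CPM, 2.10), Ier5 (65.6 and 179 CPM, 1.43) and Egr1 (266 and 634 CPM, 1.25) were higher, and Nr4a1, Klf6 and Junb lower. At 7 dpi Atf3, Ier5 and Egr1 were at 26.33%, 46.75% and 52.35% of their levels outside the gate. By the mean of single-cell CPM their log2 ratios were 0.498, 0.234 and 0.638, each under 2-fold. Heat shock genes had 1 of 8 higher and 1 lower. Of the 8, 1 passed the filter through the uninjured library alone and 1 through the 7 dpi library alone. Ahsa1, a cochaperone of HSP90, was higher (6.67 and 99.6 CPM, 3.71), but its ratio was 0.73 with the limit for Cd79a and Cd79b at 250 CPM. Hspa1b, an inducible HSP70, was lower (148 and 52.5 CPM, -1.48), but a single cell held 88.5% of the uninjured reads. Without the top cell of each library the Hspa1b ratio was 0.26. Of the mitochondrially encoded respiratory chain 1 of 12 genes was higher and 0 lower (median -0.27). Of the survival list 0 of 2 compared genes, Mcl1 and Bcl2a1b, passed 2-fold, and 0 of 20 interferon-stimulated genes were past the filter.

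Genes of other cell types were also higher in gated cells at 7 dpi. The 7 compared neutrophil granule genes and the 4 compared hemoglobin genes passed the filter through the 7 dpi library alone, which favours a higher call, and their levels are given as a description. Ngp, a granule protein, had 1.38 and 1161 CPM (8.93), and the calprotectin chains S100a8 and S100a9 had 1.49 and 1102 CPM (8.79) and 0.58 and 460 CPM (8.19). Their summed level was 174 CPM in uninjured and 4299 CPM in 7 dpi B cells, and it was at least 500 CPM in 42 of 42 cells at 7 dpi, from 576 to 24808 CPM. In the 7 dpi cells outside the gate the sum was 20352 CPM, so the level inside was 21.1% of that outside. Ngp was at 22.2%, S100a8 at 24.2%, S100a9 at 27.3%, Camp at 18.7% and Lyz2 at 19.2% of their levels outside. Hemoglobin genes had a sum of 10.1 and 2868 CPM inside and 211 and 4885 CPM outside, or 58.7% of the level outside at 7 dpi. Apoe, the apolipoprotein of macrophages and activated microglia, had 119 and 19210 CPM (7.32) inside, 24.98% of the level outside, and 1459 CPM or more in each of the 42 cells. The summed microglia list had 10285 and 17510 CPM inside, with 6 of 12 compared members higher (3 of the 12 passed the filter through the 7 dpi library alone), while outside it fell from 110937 to 58093 CPM, and the level inside was 9.27% of that outside in the uninjured library and 30.1% at 7 dpi. The chemokine genes Ccl3 (37.9 and 501.2 CPM, 3.69) and Ccl4 (310 and 2664 CPM, 3.10), which B cells can make after stimulation, were at 27.5% and 32.6% of their levels outside, and Ccl5 (1.21 and 230 CPM, 6.71), a gene of NK and memory T cells, at 16.1%. Each of these levels was below that outside the gate. Ccl3 and Ccl4 were among 3 of 5 compared genes called higher on the list of B cell cytokines and signals, with Mif (96.2 and 216 CPM, 1.16), a cytokine whose ratio was -2.68 without pre-BCR cells, and the costimulator Cd86 was the 1 lower (103 and 40.6 CPM, -1.32). Of these 5 genes, 2 passed the filter through the uninjured library alone and 2 through the 7 dpi library alone. Of the monocyte and macrophage list 3 of 4 compared genes were higher, Spp1 (0 and 269 CPM) and Lyz2, which passed the filter through the 7 dpi library alone, and Apoe, and Vim was lower, and of the myelin list 0 of 1 passed 2-fold (Cnp, 365 and 185 CPM). The part of RNA from these other cells in the ratios of B cell genes was not tested.

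**Figure D5:**
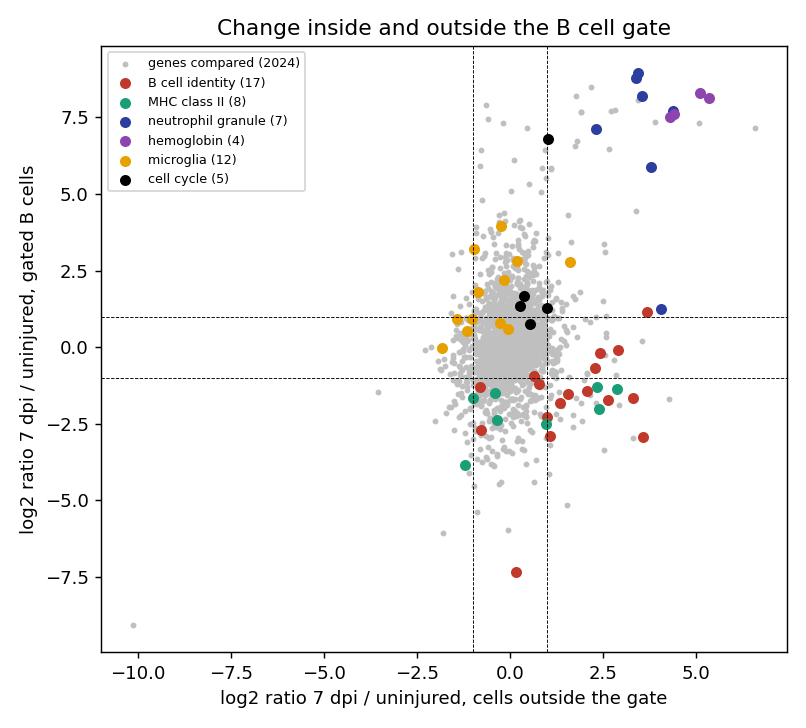
Each point is one of 2024 compared genes, with its log2 ratio of 7 dpi over uninjured in cells outside the gate (x axis) and in gated B cells (y axis), gene lists in colour, and dashed lines at -1 and 1. Neutrophil granule and hemoglobin genes lie at upper right, higher in both, and H2-Aa, H2-Ab1, H2-Eb1 and several B cell identity genes such as Cd22 and Ebf1 at lower right, lower inside the gate and higher outside it.

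Among genes that were above the outside level at 7 dpi, the highest ratios included, besides histones and Il7r, the genes Timm17a, Trip12 and Txn1. Timm17a, of the mitochondrial import channel, had 0.12 and 193 CPM (7.45), Trip12, a ubiquitin ligase, 0.29 and 206 CPM (7.33), and Txn1, thioredoxin, 0.12 and 158 CPM (7.16), with at least 100 CPM in 9, 12 and 8 of 42 cells and in 0 of 25 uninjured cells. Outside the gate Timm17a and Trip12 did not rise (41.6 and 27.2 CPM, and 50.3 and 44.2 CPM). Chka, a choline kinase, had 0 and 93.5 CPM and Fam98b 0.86 and 160 CPM. Timm17a, Trip12, Txn1, Chka and Fam98b passed the filter through the 7 dpi library alone, which favours a high ratio. Among the 15 lowest ratios, beside Xist and Fcrl1, were those of BC029214 (198 and 2.01 CPM, -6.05), Cr1l, a complement regulator (173 and 1.77 CPM, -5.97), Pag1, an adaptor that restrains SRC kinases (193 and 3.69 CPM, -5.37), and Aff3 (157 and 3.43 CPM, -5.15). Of these, Pag1 was not above the outside level of the uninjured library (230 CPM), and a single cell held 64.5% of the uninjured Aff3 reads. BC029214, Cr1l, Pag1 and Aff3 passed the filter through the uninjured library alone, which favours a low ratio.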

How the data were processed

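Single CD45+ cells of the uninjured spinal cord and of the cord at 7 dpi were measured, with 1 library of pooled tissue for each. The values deposited by the authors are raw counts of reads, not molecules, for 39066 genes and each cell, made by mapping to mm10 and counting with Bioconductor packages. The gene annotation and the strand setting are not given in the sources used here. The submitters' processing notes name STAR version 2.5 and Seurat. 0 columns belonged to no library.

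The members, lists and limits were chosen with earlier results of these data known. CPM, gates, sums over cells and ratios were computed from the counts in Python 3.11.15 (numpy 2.4.6, scipy 1.17.1, pandas 2.3.3, matplotlib 3.10.9) with a pseudocount of 1 CPM. Cells were not filtered, and no doublet caller was run, since the sort excluded doublets by forward and side scatter. 1 gated uninjured cell had too few reads for thinning. Intervals have a level of 95%, Clopper-Pearson for shares of cells and Poisson for counts. At 50 CPM or more the Poisson interval of a summed level was at most 6.87% to either side in the uninjured gate and 4.32% at 7 dpi. The count of 0 is set against 3 cells or reads. Genes named in the text are drawn from the 15 highest ratios and the 15 lowest, from the same ranks among genes above the outside level, and from members of 23 lists (322 genes, 5 of them not in the table). Lists were described by counts and medians, beside those of all genes, with no test. Gene positions are from GENCODE vM21 (GRCm38), promoters from RefSeq, and the promoter letters were chosen with the sequences in view. The calculation was tested on simulated data. Alternatives changed the gate, the cells kept, the scaling, the pseudocount, the filter and the thinning, and those on MHC-II-high cells, on cells with T or NK reads and on both gate limits together were added after the data had been seen. The 60 dpi cells were used in 1 count only. Values of some list members are not reported here.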

Additional observations from a re-analysis of the deposited data

Results flagged for a closer look

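Some genes were at least 2-fold lower at 7 dpi inside the gate and at least 2-fold higher in the cells outside it. The difference between these ratios was not tested. Among B cell genes, the log2 ratio inside was -2.94 for Cd22 (3.57 outside), -1.44 for Ebf1 (2.07 outside), -1.52 for Spib (1.55 outside), -1.74 for Ly6d (2.62 outside), -2.90 for Faim3 (1.07 outside) and -1.09 for Cd24a (1.99 outside). Among MHC class II genes it was -1.29 for H2-Aa (2.35 outside), -2.01 for H2-Ab1 (2.40 outside) and -1.38 for H2-Eb1 (2.86 outside). The same was seen for Aff3, with -5.15 inside and 1.53 outside, and for Nedd9, with -4.13 inside and 1.05 outside. The cells outside include 7 uninjured and 28 7 dpi cells that pass the limit for Cd79a and Cd79b and have Csf1r. With all cells past that limit left out, the ratio outside was below 1 for Spib (0.67) and Aff3 (-0.26). It was still above 1 for Cd22 (3.20), Ebf1 (1.60), Ly6d (3.39), Faim3 (1.07), Cd24a (2.03), H2-Aa (2.12), H2-Ab1 (2.16), H2-Eb1 (2.69) and Nedd9 (1.09).

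The 60 dpi library, which the comparison does not use, held 88 cells with at least 500 CPM of Igll1, Vpreb1 and Vpreb2 among 524 gated cells, or 16.8% (95% interval 13.7 to 20.3%), against 0 of 25 in the uninjured gate.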

How the results depend on the processing

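A set of 146 genes was followed. It holds genes named in the text and some that are not, and lacks some that are, such as Vim. Of these 146, 114 were at least 2-fold higher or lower, whether or not they passed the filter. Of the 114, 106 kept their direction under each of the 17 alternatives that gave a value. For 3 (Vpreb2, Dntt and Ighg2b) the ratio was 0 in MHC-II-high cells, and for Ighg2b also without pre-BCR cells and without the top cell, since no reads were left. The direction turned for 5. Hspa1b was 0.60 with Csf1r under 100 CPM, 0.18 by the mean of single-cell CPM, 0.26 without the top cell of each gene, 0.52 in sums of thinned cells and 0.83 with both gate limits stricter. Pou2af1 was -0.76 with Csf1r under 100 CPM and -0.53 with both limits stricter. Mif was -2.68 without pre-BCR cells and -1.69 in MHC-II-high cells only. Ccr1 was -0.0551 by the mean of single-cell CPM, -0.0258 without the top cell and -0.00242 in MHC-II-high cells, where Nr4a1 was 0.28. The size of some ratios also fell with the limit for Cd79a and Cd79b at 250 CPM. The log2 ratio was then 0.75 for Igll1 (10.14 as reported) and 0.73 for Ahsa1 (3.71), both under 2-fold. It was 1.88 for Chka (6.56), 2.60 for Txn1 (7.16) and 3.40 for Stmn1 (8.36). The cause was not tested. The share of gated cells at 7 dpi was 6.39% with Csf1r under 100 CPM and 5.07% with at least 1000 CPM of Cd79a and Cd79b as well, when the uninjured share was 4.46%. With a filter of 10 CPM and 10% of cells 1517 genes were higher and 1089 lower of 4965, and with a read as the only filter 4802 and 2675 of 15171, since more genes enter. The counts stayed within a factor of 1.5 under the other alternatives. They were 576 higher and 263 lower without the top cell of each gene, 580 and 353 without cells with T or NK cell reads, and 505 and 328 with Csf1r under 100 CPM. Leaving out cells with at least 500 CPM of T cell, NK cell or neutrophil granule genes left 20 uninjured cells and 0 cells at 7 dpi, so it gave no value. No paired analysis was possible because each condition is 1 library, for which also no replicate could be left out. Intervals cover counting error only.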
